A study of Mus musculus with 12 samples.

Results

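The sites described here lie in transcripts of the ubiquitin system, the machinery that tags proteins with the small protein ubiquitin and removes the tag again. They were taken from a deposited table of cytosines in mouse tissue RNA as the rows whose gene name begins with Rnf, Trim, Fbx, Usp, Klhl, Ube, Ubr, Cul, Herc, Znrf or March followed by a letter or digit. That gave 50 of the 2498 listed sites, in 41 of 1964 genes. The rule leaves out Znrf1, Trim41, Klhl26, Rnf149 and Rnf157, 5 genes of the same families with 7 sites, among them the Znrf1 site that reached 87.2% in liver. Counts below therefore describe the 50 sites and not the families. The names also catch more than ubiquitin ligases and deubiquitinases: 5 sites are in genes of E2 enzymes, and the F-box and Klhl genes encode adaptors that hold the substrate. At 43 of the 50 sites, in 36 genes, at least 1 tissue had 20 reads or more. The remaining 7 sites, in Fbxo36, Ube2q2, Fbxo43, March9 (2 sites) and Trim37 (2 sites), were blank in every tissue.

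Polyadenylated RNA was treated with bisulfite, which turns unmodified cytosine into a base read as T and leaves 5-methylcytosine (m5C) as C. The m5C level is the percentage of reads that kept the C. Unmodified cytosines that escaped conversion would count the same, and their share was not tested. All 12 libraries came from wild-type C57BL/6 mice of 8 to 10 weeks, with no treatment named. Muscle had 4 female libraries, heart and liver 1 female library each, and lung, small intestine and spleen 1 female and 1 male library each. The table has 1 column set per tissue, so values have no spread between animals, and the tests compare the deposited columns only. Muscle, heart and liver libraries were all female. In comparisons of any of these tissues with lung, small intestine or spleen, tissue and sex cannot be told apart. Intervals are 95% Wilson intervals and cover counting error only. Where no read was unconverted, the level given as allowed is 3 reads of the coverage, which is lower than the upper Wilson bound drawn in the plots. In bulk tissue, a lower level in every cell and fewer cells that carry the modified RNA cannot be told apart.

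Ubiquitin is activated by an E1 enzyme, passed to an E2 conjugating enzyme and attached to the substrate by an E3 ligase. RING ligases bring the loaded E2 to the substrate, HECT ligases first take ubiquitin onto themselves, and cullin ligases are built on a scaffold that carries exchangeable adaptors such as F-box and Klhl proteins. Deubiquitinases of the Usp family cut ubiquitin off. In striated muscle this system is best known for the turnover of sarcomere proteins during atrophy.

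Summed over the member sites, muscle had 29979 reads, heart 19616, liver 11027 and small intestine 8881, while lung had 1905 and spleen 1838. Over all listed sites the sums ran from 261562 reads in lung to 4683960 in muscle. Sites with 20 reads numbered 41 of 50 in heart, 41 in muscle, 34 in small intestine, 32 in liver, 21 in lung and 17 in spleen, so lung and spleen are the tissues where a level is most often unknown. Of the tissue markers looked up, Alb had 1177520 reads in liver and 66 or fewer in any other tissue, Myh4 had 1359239 in muscle and at most 255 elsewhere, and Defa24 had 3324 in small intestine and was blank elsewhere. Abca3 had 981 reads in lung and 1001 in liver, and none of the heart or spleen markers had a listed site, so the labels of those tissues were not checked.

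Positions are given on mm10 (GRCm38), the build in the submitters' processing notes. RefSeq gene spans held 47 of the 50 sites. Of these, 11 (23.4%) were at most 1 kb from where the gene starts, 4 (8.51%) at most 1 kb from where it ends, and 32 (68.1%) elsewhere. Over all listed sites inside their gene the shares were 22.3%, 19.7% and 58.0%. The Ube2f site lay 1204 bases beyond the 3′ end of the annotated gene, the Fbxl18 site 3090 bases beyond it and the Ube2q2 site 223 bases before the 5′ end. Gene spans alone do not tell exon, intron or UTR, which were not determined here. Both Cul5 sites also lie inside the span of Gm16124, a lncRNA gene whose strand the gene table used does not give, and whether reads were assigned by strand is unknown, so reads of Cul5 and of Gm16124 cannot be told apart there.

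Sequence could be read where a site fell in a RefSeq window around an annotated start, which was the case for 103 listed sites, and the base at the site was C on the listed strand in 103 of them. Among member sites with reads these were the 2 sites of Ube2e2 and the site of Trim39. They are shown because they are the member sites with values whose neighbouring bases can be seen, and because the Ube2e2 cytosines are only 10 bases apart. Capitals mark the listed cytosines, on the minus strand of chr14:18893634-18893663 and chr17:36271660-36271683, from RefSeq on GRCm38.p6.
Ube2e2: gcggcggCtcgcggaggCggcggtttcact
Trim39: tcggcgtctCgccacgcgcatgcg
The Ube2e2 cytosines lie at positions -243 and -233 from an annotated start, and the Trim39 cytosine at -241, although all 3 are inside the annotated gene span. G and C made up 76.7% of the Ube2e2 stretch and 75% of the Trim39 stretch. The letters CNGGG, starting at the listed cytosine and searched on its own strand, stood at 12 of the 98 listed sites (12.2%) that had 4 further bases in the window and at none of these 3, which says only that those letters are not at these cytosines.

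Across tissues, member sites had their highest levels in muscle and heart. Of the 43 covered sites, muscle was the highest tissue at 19 and heart at 12, followed by liver and small intestine at 4 each, lung at 3 and spleen at 1. Of the 30 sites covered in heart, muscle, liver and small intestine, 14 (46.7%) were highest in muscle and 10 (33.3%) in heart, close to the shares of 43.8% and 33.2% over the 1227 listed sites covered in the same tissues. A level of at least 10% was reached at 26 of 41 member sites in heart (57.9% of all covered sites), 21 of 41 in muscle (61.3% of all), 12 of 32 in liver (36.5% of all), 12 of 34 in small intestine (24.2% of all), 2 of 21 in lung (13.7% of all) and 1 of 17 in spleen (12.2% of all). The member shares were 63.4%, 51.2%, 37.5%, 35.3%, 9.52% and 5.88% in the same order. The median level at member sites was 11.3% for heart (10.99% over all covered sites), 10.8% for muscle (11.8%), 7.48% for liver (6.38%) and 5.06% for small intestine (4.08%). Lung had a median of 1.64% (1.90%) and spleen one of 0.781% (1.17%). With 50 reads required, the sites at 10% fell from 12 to 7 of 24 for small intestine, from 2 to 1 of 10 for lung and from 1 to 0 of 10 for spleen. Shares over all listed sites at 50 reads are not given here, so this fall is no result about the member sites.

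**Figure D1:**
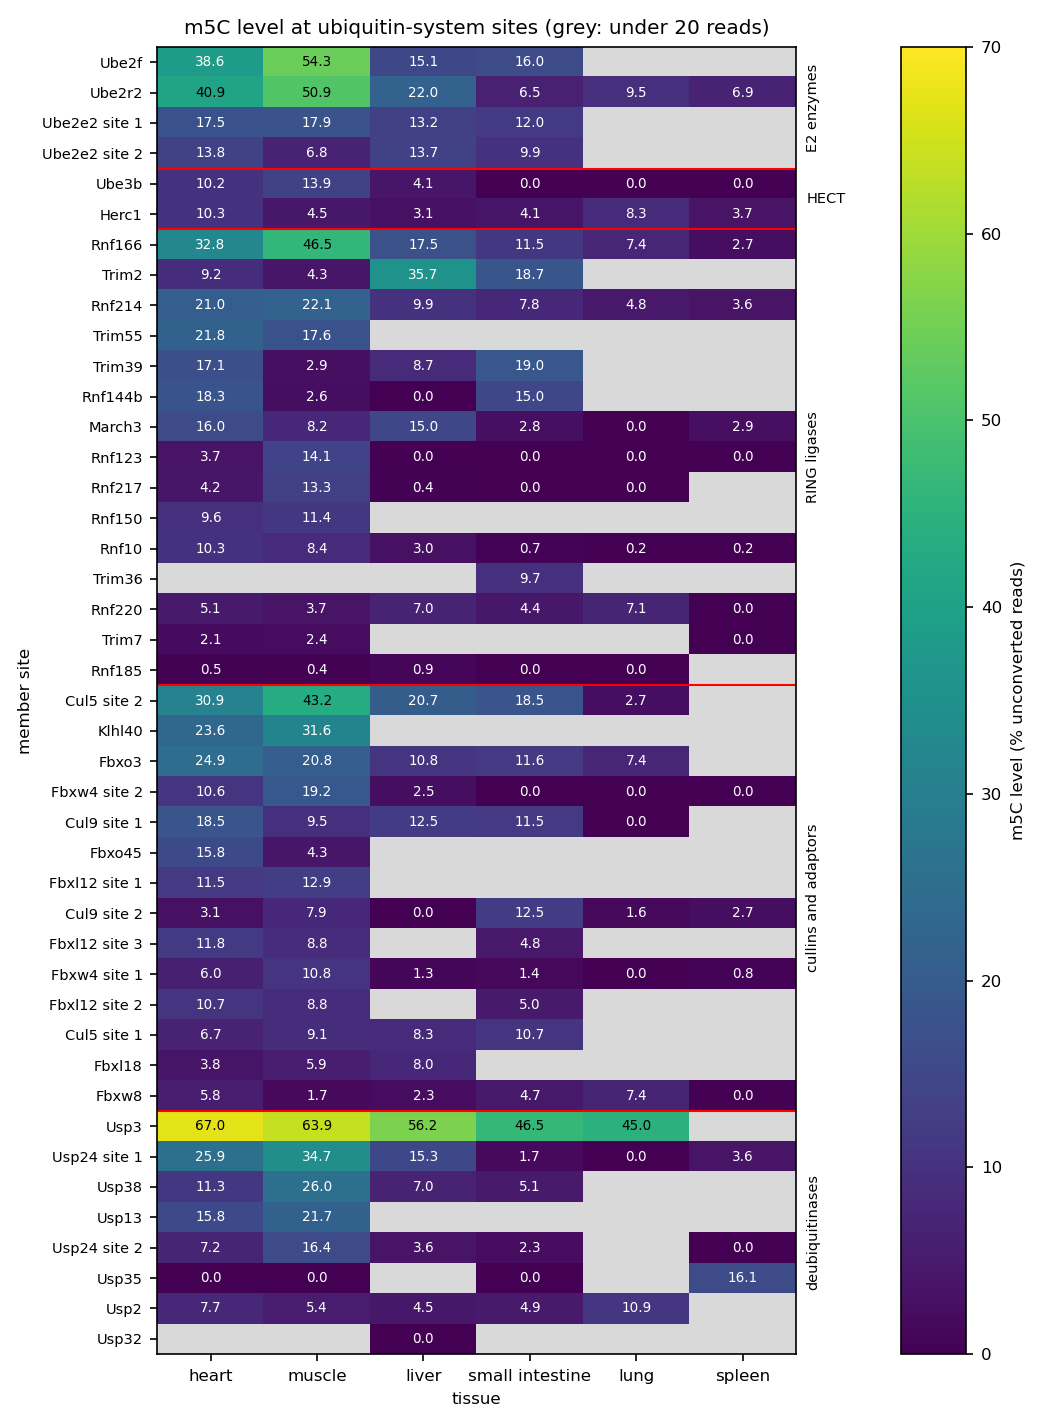
m5C level (percent of unconverted reads, colour and number) at the 43 member sites with 20 reads in at least 1 tissue, by tissue and by role of the gene; grey cells had under 20 reads. Usp3 was high in each of its 5 covered tissues, from 45% to 67.0%, while the other bright rows were bright in heart and muscle or, for Trim2, in liver.

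The number of tissues in which a member site reached 10% is bounded by the number covered. Covered tissues numbered 6 at 14 sites, 5 at 8, 4 at 9, 3 at 4, 2 at 6 and 1 at 2. The same counts over all listed sites are not given here, so those below describe the member sites only. There were 14 sites at 10% in 1 tissue alone, 13 in 2, 3 in 3, 5 in 4 and 1 in 5, and 7 covered sites stayed under 10% everywhere. At the 14 sites covered in all 6 tissues, levels ran from 50.9% in muscle for Ube2r2 down to 0% in several tissues, as the plots of these 14 sites show.

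**Figure D2:**
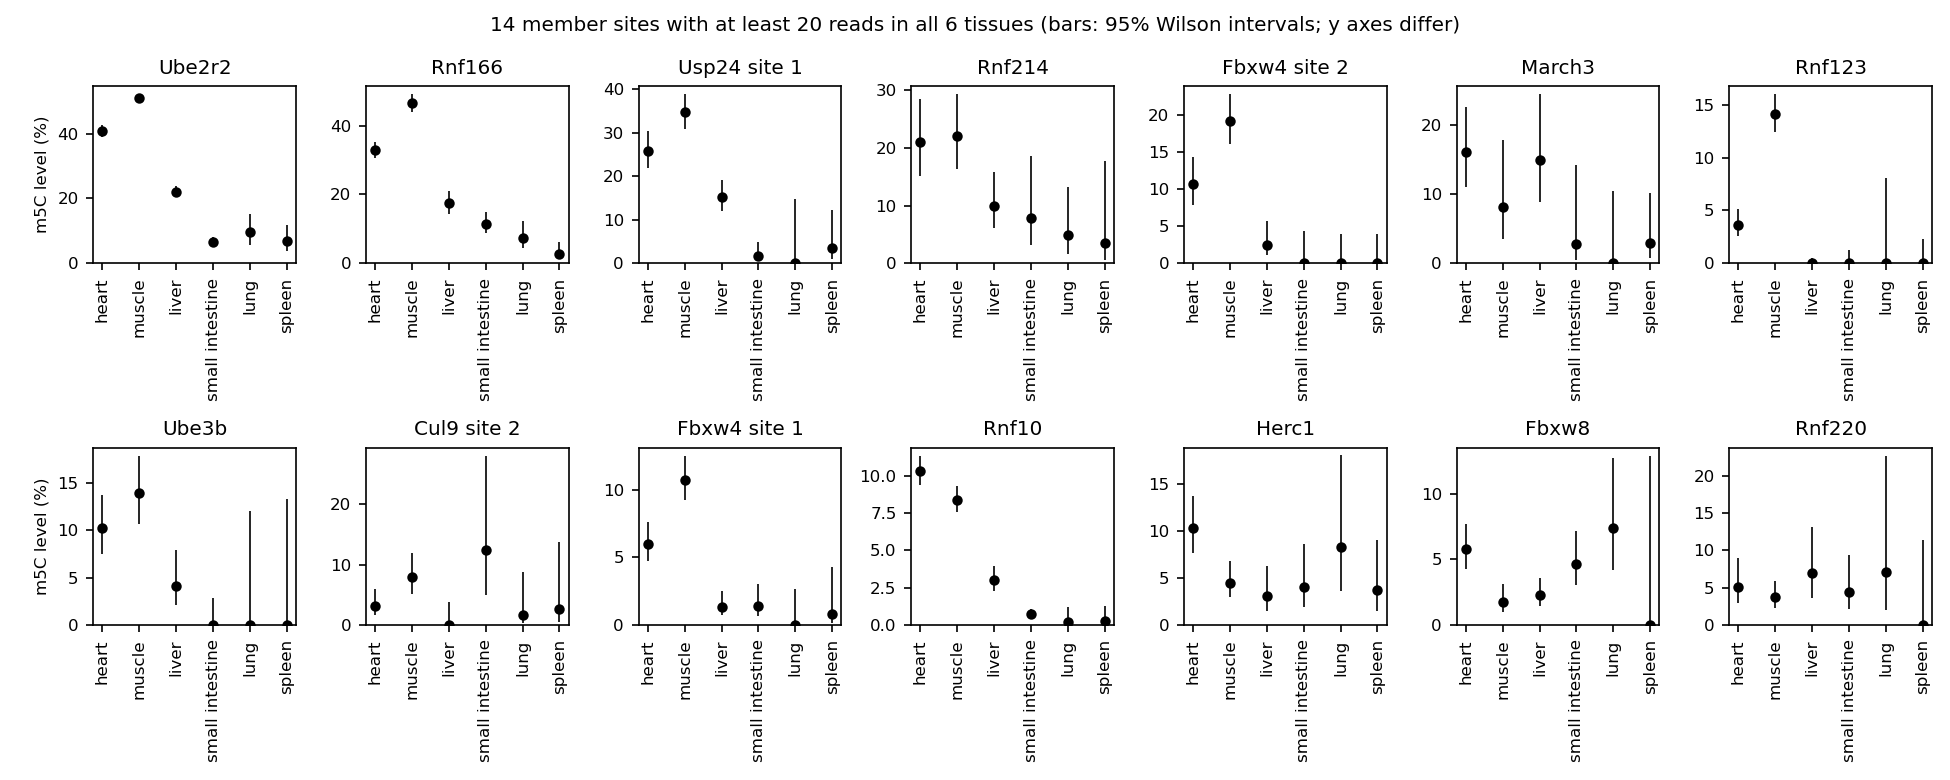
m5C level in percent (y axis, scaled per panel) in each tissue (x axis) at the 14 member sites with at least 20 reads in all 6 tissues; points are levels of the deposited columns and bars 95% Wilson intervals. Ube2r2, Rnf166 and Usp24 site 1 are highest in muscle, then heart, then liver, whereas the intervals of Rnf220 overlap in all 6 tissues.

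How often did a pair of tissues differ at these sites? Each pair was compared by Fisher's exact test over every listed site with 20 reads in both tissues, and calls needed an adjusted p below 0.05 together with 10 percentage points or more between the levels. Against heart, 5 of 41 member sites were higher in muscle and 1 lower, where 10.0% of all tested sites were higher and 5.35% lower. Against liver, 11 of 31 were higher in muscle and 1 lower (27.1% and 3.28% of all sites), and against small intestine 12 of 33 were higher and 1 lower (37.4% and 2.79%). Against lung 8 of 21 were higher and 0 lower (42.2% and 1.73%), and against spleen 6 of 17 and 0 (42.6% and 2.03%). Heart was higher than liver at 8 of 31 and lower at 1 (19.6% and 2.65%), and higher than small intestine at 8 of 33 and lower at 0 (27.5% and 2.18%). Liver was higher than small intestine at 3 of 30 and lower at 2 (8.09% and 3.12%). These shares of the 50 sites lay near those of the whole table and are no result about these sites. With the 5 left-out genes added, muscle was higher than spleen at 11 of 23 sites, and 20% of covered sites in lung and 17.4% in spleen reached 10%. The pairs share columns, and are not independent of each other.

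A site may be in the table because it was high in a tissue compared here. The sources used here do not say how sites were listed, and the authors' deposited table calls 15 of the 50 member sites in no tissue. Of the 90 called member differences over the 15 pairs, 72 are at sites that the authors' deposited table calls in a tissue outside the pair. For 2, Usp38 in muscle against heart and Trim2 in liver against small intestine, it calls the site in both tissues of the pair and no other. For the remaining 16, at 9 sites, its only call is in the higher tissue. Those differences are given below as values, with no p.

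**Figure D3:**
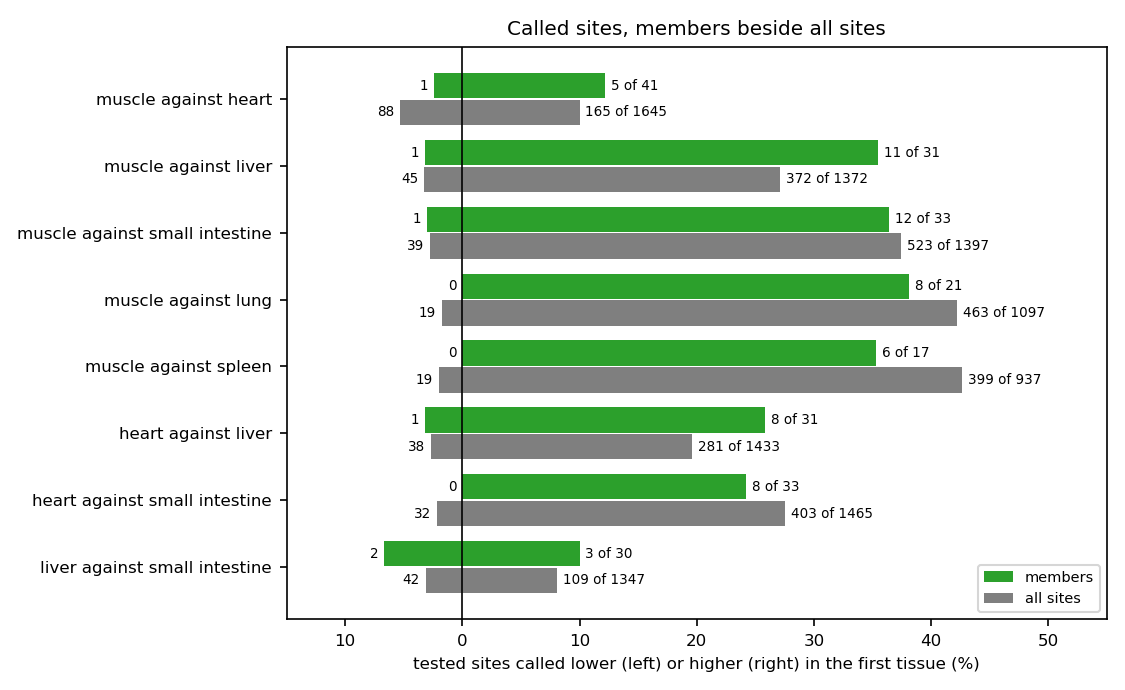
Percentage of tested sites called higher (right) or lower (left) in the first tissue of each pair (x axis), for member sites and for all listed sites, with counts beside the bars. In muscle against heart 5 of 41 member sites and 165 of 1645 listed sites were higher, and in muscle against small intestine 12 of 33 and 523 of 1397.

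Median differences are given beside those of the table. Muscle minus heart had a median of 0.31 points over the 41 member sites and 0.31 over all 1645 sites, with 22 member sites above and 18 below 0. Muscle minus liver had 7.68 points against 5.16 over all sites, muscle minus small intestine 5.86 against 7.49, and heart minus liver 4.70 against 3.95. Against lung, muscle had a median of 13.3 points at member sites and 9.60 over all sites, and heart 10.2 and 7.84. Heart was higher than lung at 9 of 21 member sites (33.7% of all sites) and lower at 0 (1.25%), and higher than spleen at 6 of 17 (34.3%) and lower at 1 (1.67%). Liver was higher than lung at 3 of 21 (12.3%) and lower at 0 (1.59%), and higher than spleen at 3 of 15 (10.9%) and lower at 0 (2.21%). Between the tissues with low levels, small intestine was higher than lung at 0 of 21 member sites (3.89% of all sites) and lower at 0 (1.14%). It was higher than spleen at 0 of 16 (3.36%) and lower at 1 (0.946%). Lung was higher than spleen at 0 of 14 (0.9%) and lower at 0 (0.337%). At the median depth of covered member sites, 44 reads in lung and 68 in spleen, intervals are wide, and many differences of 10 points are not detectable.

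Among the E2 enzymes, Ube2r2 and Ube2f had high levels in striated muscle. Ube2r2, a relative of Cdc34 that serves cullin ligases, lies on chromosome 4 at 41190922, 2.45 kb from the 3′ end of the gene. It had 50.9% in muscle (49.5 to 52.3, 4847 reads), 40.9% in heart (39.1 to 42.7, 2908 reads) and 522 of 2373 reads or 22% in liver (20.4 to 23.7). Small intestine had 6.505% of 1153 reads, lung 9.52% of 147 and spleen 6.92% of 159. The levels fell into an upper pair, liver between, and 3 low tissues whose intervals overlap. Muscle was higher than heart by 10.02 points (Fisher's exact adjusted p = 1.7e-16) and than liver by 28.9 points (Fisher's exact adjusted p = 2e-125). Liver was higher than small intestine by 15.5 points (Fisher's exact adjusted p = 4.8e-33).

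Ube2f, the E2 that attaches the ubiquitin-like protein NEDD8 and is known to do so on Cul5, had its site on chromosome 1 at 91287725. It had 54.3% in muscle (48.02 to 60.4, 247 reads), 38.6% in heart (28.05 to 50.3, 70 reads), 15.1% in liver (8.63 to 25, 73 reads) and 16% in small intestine (6.40 to 34.7, 25 reads). Muscle was above liver by 39.2 points (Fisher's exact adjusted p = 6e-09) and above small intestine by 38.3 (Fisher's exact adjusted p = 0.00059). Heart was above liver by 23.5 points (Fisher's exact adjusted p = 0.0062), and the 15.7 points between muscle and heart did not pass. Since the site lies beyond the annotated gene, its transcript rests on the authors' assignment.

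Ube2e2, an E2 of the UBE2E class, has its 2 sites on chromosome 14 at 18893656 and 18893646, the cytosines printed in capitals above. The first had 17.9% in muscle, 17.5% in heart, 13.2% in liver and 12% in small intestine, from 28 to 91 reads. The second had 6.82%, 13.8%, 13.7% and 9.88% in the same tissues, from 44 to 161 reads. Neither was called in any pair of tissues described here, and the 4 intervals of each site overlap. Muscle minus liver was 4.67 points at the first site and -6.85 at the second, with Fisher's exact adjusted p of 0.68 and 0.42.

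The HECT ligases had 2 sites, with levels of up to 13.9%. Ube3b, on chromosome 5 at 114390477, had 13.9% in muscle (10.7 to 17.9), 10.2% in heart (7.51 to 13.8), 4.15% in liver (2.12 to 7.96) and no unconverted read among 130 in small intestine, which allows up to 2.31%. Lung with 28 reads and spleen with 25 also had none, which allows up to 10.7% and 12%. Ube3b was higher than small intestine in muscle by 13.9 points (Fisher's exact adjusted p = 3.1e-07) and in heart by 10.2 points, where heart is its only tissue called in the authors' deposited table. Herc1, a very large HECT protein, had 10.3% in heart, 8.33% in lung, 4.47% in muscle, 4.05% in small intestine, 3.67% in spleen and 3.11% in liver, and was called in none of the 15 pairs.

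RING ligases contributed 19 sites in 17 genes, 15 of them covered. Rnf166 on chromosome 8 at 122466976, 0.831 kb from the 3′ end, had the highest level of the group, 46.5% in muscle (43.8 to 49.1, 1384 reads). Heart had 32.8% (30.5 to 35.1), liver 17.5% (14.3 to 21.1), small intestine 11.5% (8.83 to 14.8), lung 7.39% (4.37 to 12.2) and spleen 2.70% (1.16 to 6.17). Only neighbours among the 4 lowest tissues had overlapping intervals. Muscle was above heart by 13.7 points (Fisher's exact adjusted p = 3.7e-13) and heart above liver by 15.3 (Fisher's exact adjusted p = 1.2e-10).

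Rnf123, the catalytic subunit of the KPC ligase that acts on the cell cycle inhibitor p27, had its highest level in muscle, the only tissue where the authors' deposited table calls it. On chromosome 9 at 108052234 it had 14.1% in muscle (12.4 to 15.98, 1474 reads) and 3.65% in heart (2.58 to 5.14, 849 reads). Liver had 0 of 714 reads, which allows up to 0.42%, small intestine 0 of 309 (up to 0.971%), spleen 0 of 160 (up to 1.88%) and lung 0 of 44 (up to 6.82%). The upper Wilson bounds of liver, small intestine, spleen and lung were 0.535%, 1.23%, 2.34% and 8.03%. Muscle was above heart by 10.5 points and above liver by 14.1. Rnf217, a RING-between-RING ligase on chromosome 10 at 31608744, had 13.3% in muscle, 4.17% in heart, 0.368% in liver and 0 of 30 reads in small intestine. Muscle, again the only tissue called in the authors' deposited table, was above liver by 12.9 points and above heart by 9.11.

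Rnf144b, also a RING-between-RING ligase, went the other way. On chromosome 13 at 47247895, 96 bases from the 3′ end of the gene, it had 18.3% in heart (11.7 to 27.3, 93 reads), 2.56% in muscle (0.706 to 8.88, 78 reads), 0 of 104 reads in liver and 15% of 20 reads in small intestine. Muscle minus heart was -15.7 points, the only one of the 41 tested member sites called lower in muscle, and heart was above liver by 18.3 points. Heart is the only tissue where the authors' deposited table calls this site. Liver minus small intestine was -15 points (Fisher's exact adjusted p = 0.014), with 3 unconverted reads behind the small intestine value.

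**Figure D4:**
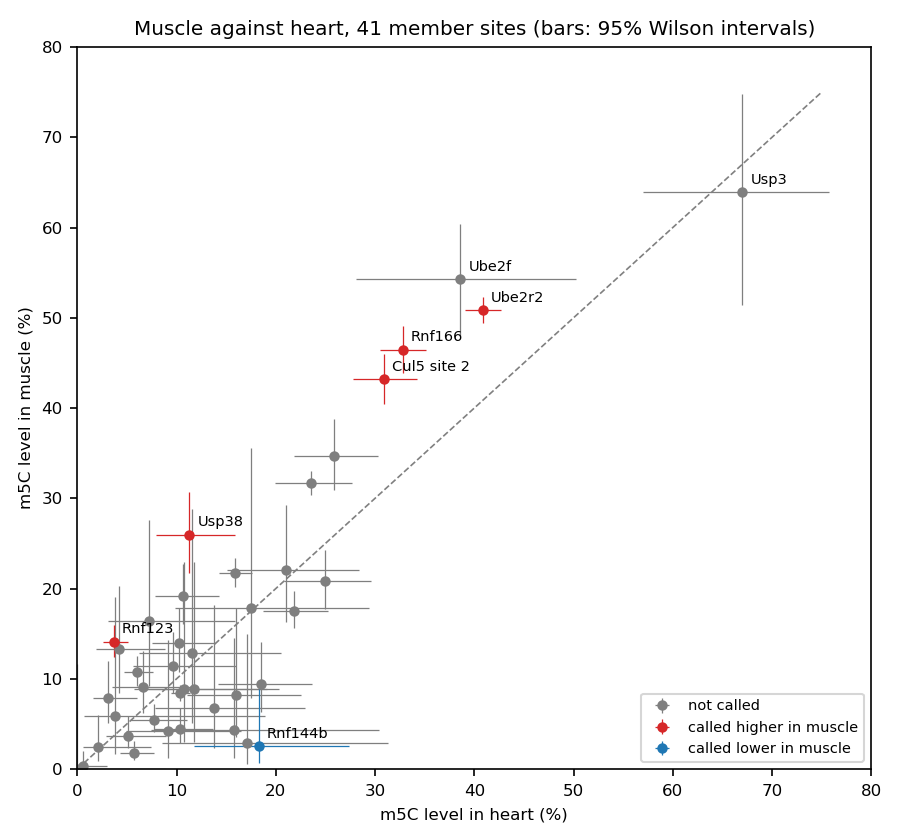
m5C level in muscle (y axis, percent) against heart (x axis, percent) at the 41 member sites with 20 reads in both; bars are 95% Wilson intervals, the dashed line marks equal levels, and colours mark sites called higher (5) or lower (1) in muscle. The called sites higher in muscle spread from Rnf123 at 14.1% to Ube2r2 at 50.9%.

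Of the 5 sites higher in muscle than in heart, Ube2r2, Rnf166, Cul5 site 2, Usp38 and Rnf123, the first 3 could be tested and were called when only sites that the authors called outside the pair were kept. Usp38, Rnf123 and Rnf144b could not be tested there, which left 3 higher and 0 lower of 17 sites. That alternative was chosen after the data were seen. It used the same reads at each site and changed only which sites entered the adjustment, so it is no further support.

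Trim2, a RING ligase of the tripartite motif family known from neurons, was highest in liver. On chromosome 3 at 84190999 it had 35.7% in liver (29.7 to 42.3, 221 reads), 18.7% in small intestine (15.9 to 21.8, 663 reads), 9.18% in heart (4.91 to 16.5, 98 reads) and 4.26% in muscle (1.17 to 14.2, 47 reads). Liver stood above the other tissues, and the heart and muscle intervals overlap. Muscle minus liver was -31.5 points (Fisher's exact adjusted p = 9.9e-06) and heart minus liver -26.56 points (Fisher's exact adjusted p = 1.4e-06). Liver was above small intestine by 17.04 points (Fisher's exact adjusted p = 4e-06). Muscle minus small intestine was -14.4 points (Fisher's exact adjusted p = 0.018). With 50 reads required, the 47 reads in muscle left Trim2 out of both muscle comparisons, which then had 0 sites lower in muscle.

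Further RING sites had moderate levels. Rnf214 had 22.1% in muscle and 20.98% in heart, while liver had 9.93%, small intestine 7.84%, lung 4.84% and spleen 3.57%. Muscle was above each of the last 4, by 12.1, 14.2, 17.2 and 18.5 points, with Fisher's exact adjusted p of 0.011, 0.04, 0.0048 and 0.035. March3, a membrane-bound RING ligase of endosomes on chromosome 18 at 56783137, had 16.03% in heart, 15% in liver, 8.20% in muscle, 2.94% in spleen, 2.78% in small intestine and 0 of 33 reads in lung. Heart was above lung by 16.03 points (Fisher's exact adjusted p = 0.019) and above spleen by 13.1 (Fisher's exact adjusted p = 0.014).

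Trim39, whose site is printed above, had 19.05% in small intestine (9.98 to 33.3), 17.1% in heart (8.53 to 31.3), 8.70% in liver (3.43 to 20.3) and 2.94% in muscle (0.521 to 14.9), from 34 to 46 reads, and none of these differences passed. Rnf10 on chromosome 5 at 115246000 was deeply covered and low, with 10.3% of 3756 reads in heart, 8.41% of 3815 in muscle, 3.01% of 1659 in liver, 0.705% of 2978 in small intestine, 0.227% of 440 in spleen and 0.21% of 477 in lung. Heart, its only tissue called in the authors' deposited table, was above lung by 10.1 points and above spleen by 10.1. Muscle minus heart was -1.92 points, far under the minimum difference.

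Trim55, the sarcomere ligase also called MuRF2, was covered in heart and muscle alone, with 21.8% of 596 reads (18.7 to 25.3) and 17.6% of 1316 (15.6 to 19.7). Rnf150, near the 5′ end of its gene on chromosome 8, had 11.4% in muscle and 9.60% in heart and was also covered there alone. Neither differed by 10 points. Rnf220 lay between 0% and 7.14% in all 6 tissues, Trim7 between 0% and 2.41% in 3 tissues, and Rnf185, a ligase of endoplasmic reticulum quality control, between 0% and 0.923% in 5 tissues. Trim36 had 9.72% of 72 reads in small intestine and was blank elsewhere.

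Cullins and their adaptors had 16 sites in 11 genes, of which 14 sites were covered. Cul5, the scaffold of the elongin and SOCS-box ligases, had its second site on chromosome 9 at 53667154, 353 bases from the 5′ end. There it had 43.2% in muscle (40.4 to 46.0, 1192 reads), 30.9% in heart (27.8 to 34.2), 20.7% in liver (16.5 to 25.7), 18.5% in small intestine (14.5 to 23.3) and 2.70% of 37 reads in lung (0.479 to 13.8). Lung was lowest, liver and small intestine overlapped, and muscle stood above heart by 12.3 points (Fisher's exact adjusted p = 3.1e-07). Muscle was above liver by 22.5 points (Fisher's exact adjusted p = 1.4e-12), and small intestine by 24.7 (Fisher's exact adjusted p = 4.4e-15). Liver was above lung by 18.03 (Fisher's exact adjusted p = 0.025).

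The first Cul5 site at 53667418, 264 bases nearer to the 5′ end, was flat by comparison. It had 9.09% in muscle, 6.67% in heart, 8.33% in liver and 10.7% in small intestine, from 56 to 275 reads. Its intervals overlap in the 4 tissues, and in heart and muscle they lie wholly below those of the second site. No pair of tissues was called at this first site, and the difference between the 2 sites was not tested.

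Cul9, an atypical cullin of the cytoplasm known to bind p53, had 2 sites 5.58 kb apart on chromosome 17. Their levels ranked the tissues in unlike orders, which was not tested, and muscle against heart was called at neither site. At 46543289 heart had 18.5% (14.2 to 23.6), liver 12.5% (7.45 to 20.2), small intestine 11.5% of 26 reads (4.003 to 28.98), muscle 9.46% (6.27 to 14.03) and lung 0 of 31 reads, which allows up to 9.68%. At 46537704 it had 12.5% in small intestine (4.97 to 28.1), 7.88% in muscle (5.11 to 11.98), 3.11% in heart (1.59 to 6.02), 2.70% in spleen, 1.64% in lung and 0 of 97 reads in liver, which allows up to 3.09%. Heart led the first site and was low at the second, with intervals that do not overlap. At the first site heart was above lung by 18.5 points (Fisher's exact adjusted p = 0.0093), and at the second liver minus small intestine was -12.5 points. That second value rests on 4 unconverted reads in small intestine, the only tissue where the authors' deposited table calls the site. On sites called outside the pair, liver was lower than small intestine at 1 member site instead of 2.

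Fbxw4, an F-box protein, had sites 23.7 kb apart on chromosome 19 that were both highest in muscle and next in heart. At 45636337 muscle had 19.2% (16.03 to 22.7), heart 10.6% (7.85 to 14.3) and liver 2.51%. Small intestine had 0 of 84 reads, lung 0 of 94 and spleen 0 of 94, which allow up to 3.57%, 3.19% and 3.19%. At 45659995 it had 10.8% in muscle (9.23 to 12.5), 6.02% in heart, 1.41% in small intestine, 1.32% in liver, 0.781% in spleen and 0 of 143 reads in lung. Muscle was above liver at 45636337 by 16.7 points (Fisher's exact adjusted p = 1.1e-09) and above lung at 45659995 by 10.8 points, where muscle is the only tissue called in the authors' deposited table. The muscle intervals of the 2 sites do not overlap.

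**Figure D5:**
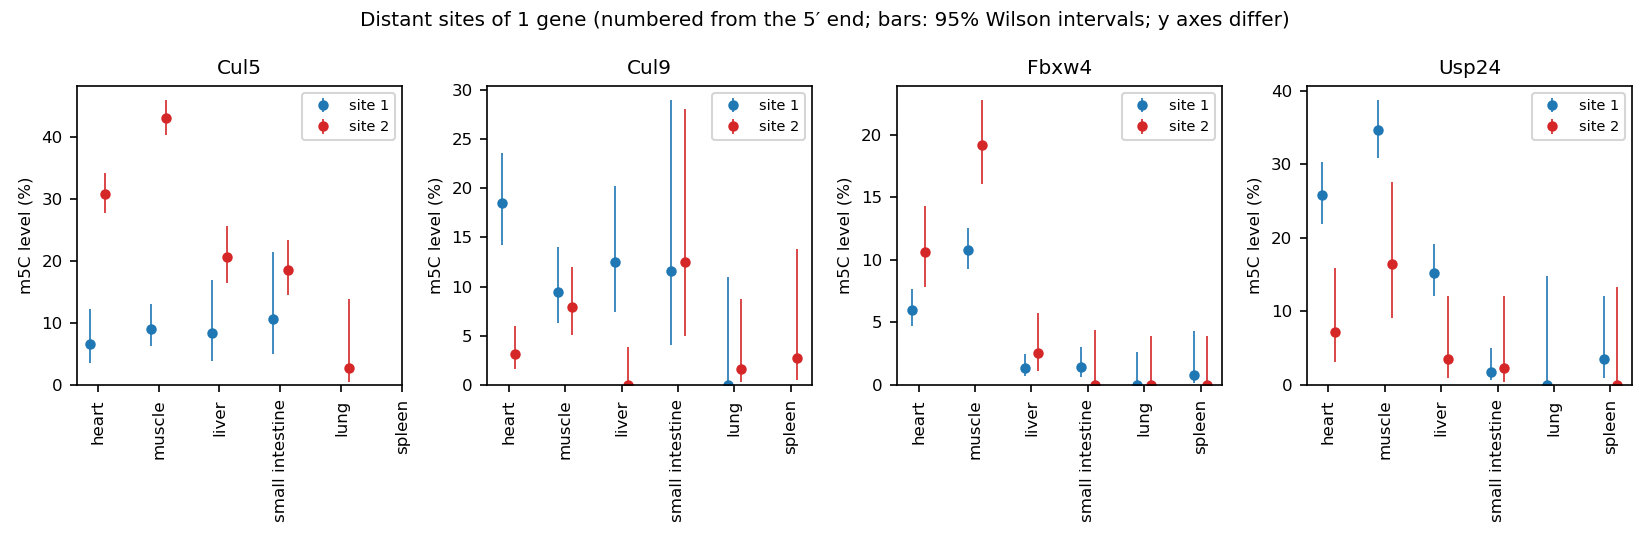
m5C level in percent (y axis, scaled per panel) by tissue (x axis) at the 2 distant sites of Cul5, Cul9, Fbxw4 and Usp24, numbered from the 5′ end of the gene; bars are 95% Wilson intervals and missing points had under 20 reads. Cul5 site 2 reached 43.2% in muscle where site 1 had 9.09%, while both Fbxw4 sites were highest in muscle.

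Klhl40, a muscle protein that stabilises thin filament proteins and is mutated in nemaline myopathy, was covered in muscle and heart alone, like Trim55. It had 31.6% of 4667 reads in muscle (30.3 to 33.0) and 23.6% of 462 in heart (19.9 to 27.7), a gap of 8.05 points (Fisher's exact adjusted p = 0.0013) that is under the minimum difference although the intervals do not overlap. Fbxo3 had 24.9% in heart (20.8 to 29.6), 20.8% in muscle (17.8 to 24.3), 11.6% in small intestine (6.59 to 19.6), 10.8% in liver (7.90 to 14.5) and 7.41% of 27 reads in lung. Heart was above liver by 14.2 points (Fisher's exact adjusted p = 3.8e-06) and above small intestine by 13.4 (Fisher's exact adjusted p = 0.012), and muscle above liver by 10.1 (Fisher's exact adjusted p = 0.0002).

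The 3 sites of Fbxl12 lie within 6 bases of each other on chromosome 9 and had almost the same values, 11.5%, 10.7% and 11.8% in heart and 12.9%, 8.82% and 8.82% in muscle. A single read can cover all 3 cytosines, so they are not independent observations. Of the 50 member sites 9 (18%) had a listed neighbour within 10 bases, beside 12.5% of all listed sites. All 9 are in Fbxl12, March9, Trim37 and Ube2e2, and the sites of March9 and Trim37 were blank in every tissue. Fbxo45 had 15.8% in heart and 4.35% in muscle from 38 and 46 reads, with overlapping intervals. Fbxw8 stayed between 0% and 7.38% in 6 tissues and Fbxl18 between 3.85% and 8.00% in 3.

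The deubiquitinases had 8 sites in 7 genes, all covered somewhere. Usp3, which removes ubiquitin from histone H2A, had the highest levels of all member sites. On chromosome 9 at 66592957, 191 bases from the 5′ end, it had 67.0% in heart (57.0 to 75.7, 94 reads), 63.9% in muscle (51.4 to 74.8, 61 reads), 56.2% in liver (50.1 to 62.2, 256 reads), 46.5% in small intestine (39.2 to 54.0, 172 reads) and 45% in lung (25.8 to 65.8, 20 reads). Lung overlapped every other tissue. Small intestine was below heart by 20.5 points (Fisher's exact adjusted p = 0.0046) and below muscle by 17.4 (Fisher's exact adjusted p = 0.044).

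Usp24 had 2 sites 34.6 kb apart on chromosome 4, both highest in muscle. At 106406422 it had 34.7% in muscle (30.9 to 38.7), 25.9% in heart (21.9 to 30.3), 15.3% in liver (12.1 to 19.1), 3.57% of 56 reads in spleen, 1.72% of 174 in small intestine (0.588 to 4.95) and 0 of 22 in lung, which allows up to 13.6%. The intervals of muscle, heart, liver and small intestine do not overlap in that order. Muscle was above liver by 19.4 points (Fisher's exact adjusted p = 4.9e-11), and liver above small intestine by 13.6 (Fisher's exact adjusted p = 1.5e-06). At 106441035 muscle had 16.4% of 61 reads, heart 7.25% of 69, liver 3.57% of 56, small intestine 2.33% of 43 and spleen 0 of 25, which allows up to 12%. Muscle, the only tissue called there in the authors' deposited table, was above small intestine by 14.1 points.

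Usp38 on chromosome 8 at 81013872, 1.14 kb from the 5′ end, had 25.97% in muscle (21.7 to 30.7), 11.3% in heart (7.88 to 15.9), 6.97% in liver (4.40 to 10.9) and 5.13% in small intestine (2.01 to 12.5). Muscle stood alone, above heart by 14.7 points (Fisher's exact adjusted p = 5.7e-05) and above liver by 19 (Fisher's exact adjusted p = 3.9e-09). Usp13 was covered in striated muscle alone, with 21.7% of 2531 reads in muscle (20.2 to 23.4) and 15.8% of 1799 in heart (14.2 to 17.6), a gap of 5.89 points (Fisher's exact adjusted p = 8e-06) that is under the minimum difference.

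Usp35 had an unusual order among members. On chromosome 7 at 97319457 it had 16.1% of 31 reads in spleen (7.09 to 32.6), and no unconverted read among 39 in heart, 29 in muscle and 83 in small intestine, which allow up to 7.69%, 10.3% and 3.61%. Heart, muscle and small intestine minus spleen were each -16.1 points, of which the difference from muscle was not called. The spleen value rests on 5 unconverted reads, and spleen is the only tissue where the authors' deposited table calls the site. With 50 reads required, none of its tissues but small intestine remained. Usp2 lay between 4.55% in liver and 10.9% in lung and was called in no pair, and Usp32 had 0 of 36 reads in liver and no other covered tissue.

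By role, the sites called higher in muscle than in liver were 2 of 4 E2 sites, 0 of 2 HECT sites, 4 of 11 RING sites, 3 of 9 cullin and adaptor sites and 2 of 5 deubiquitinase sites, beside 27.1% of all tested sites. Against small intestine they were 2 of 4, 1 of 2, 3 of 11, 2 of 10 and 4 of 6, beside 37.4%. With so few sites in each role, these counts describe the sites and do not rank the roles.

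Other genes of ubiquitin and proteasome function, 293 genes of 6 lists, had 59 sites in 44 genes. Of these, 11 of 40 tested sites were higher in muscle than in liver and 3 lower, or 27.5% and 7.5% beside 27.1% and 3.28% of all sites. Against small intestine 13 of 35 were higher and 0 lower, beside 37.4% and 2.79%, and against heart 3 of 43 were higher and 1 lower, beside 10.0% and 5.35%. The highest levels were those of Bag6, a chaperone for tail-anchored proteins, with 50.1% in heart, 29.1% in muscle, 28.2% in lung, 27.5% in small intestine, 19.99% in liver and 17.04% in spleen. Mkrn2, a RING ligase, had 44.4% in muscle, 27.7% in heart and 7.69% in liver. Dcun1d3, which acts in the attachment of NEDD8 to cullins, had 41.7% in liver, 19.4% in small intestine and 15% in heart at the first of 5 sites within 9 bases. Dcaf11, an adaptor of cullin ligases, had 39.4% in heart and 24.5% in liver, and the third site of Josd2, a deubiquitinase, had 32.1% in liver, 10.2% in small intestine, 7.69% in muscle and 7.37% in heart.

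The authors' own calls left out some sites that met 20 reads and 10%. In the authors' deposited table, 11 of the 74 member values at those limits are not called, against 475 of 3396 over all sites, and each of the 11 has an authors' deposited p-value of 1. Among them are Cul5 site 2 in muscle with 43.2% of 1192 reads and Usp3 in muscle with 63.9% of 61 reads, both of which the authors' deposited table calls in heart and liver. The others are Ube3b, Fbxl12 site 1 and Ube2e2 site 1 in muscle, Fbxo45 and March3 in heart, and Ube2f, Fbxo3, Rnf144b and Cul9 site 1 in small intestine. No source used here says how that p was made, and the values above use the reads alone.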

How the data were processed

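Bisulfite-treated polyadenylated RNA of 6 mouse tissues was sequenced. The build was mm10 and the tools were HISAT2 2.10, SAMtools, Trimmomatic, cutadapt and bcl2fastq 2.17, per the submitters' processing notes. The roles of these tools, read filters, site choice and pooling of libraries are not stated there. One of 2 kits, unnamed per library, isolated the polyadenylated RNA, per the labels' protocols. Per the file headers, each tissue has 1 coverage (a count of reads), 1 m5C level (a fraction, given here as a percentage), 1 p-value and 1 site call. The lowest of the authors' deposited counts is 10 reads, and the other cells are blank. The authors' deposited fractions times coverage lay within 0.000179 of a whole number in 9926 filled cells, which gave the unconverted reads.

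Sites needed 20 reads per tissue. Two-sided Fisher's exact tests (scipy 1.17.1, Python 3.11.15) were run on every site covered in both tissues of a pair, for 15 pairs. P-values were adjusted by Benjamini-Hochberg over all those sites, and calls needed an adjusted p under 0.05 and 10 points. The test was checked on simulated data. No library-level model could be fitted, because each tissue has 1 column set, and reads may not be independent molecules, so errors cover counting only. With no genome at hand, the letters CTCCA were not searched. Gene spans and sequences came from RefSeq GRCm38.p6. Alternatives were coverage minimums of 10 and 50, minimum differences of 5 and 20 points, the 5 left-out genes added, the Ube2 genes removed, and sites called elsewhere. Named sites were the 10 highest, the 3 largest called differences per direction in 8 pairs, the 3 most covered per role, those covered in all tissues, those of genes with several sites, those at 10% in liver, small intestine, lung or spleen, and the 5 highest of the other lists. The rest are given to account for every member. The members and lists were chosen with earlier results of these data known.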

Additional observations from a re-analysis of the deposited data

Results flagged for a closer look

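Usp3 in spleen, which was left out above for lack of depth, had 6 unconverted of 10 reads, or 60.0%. It drew attention because a value outside the main measurement exceeded the 3 reads that a count of 0 allows.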

How the results depend on the processing

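The settings were changed for 67 single-site differences and 22 counts. No direction was reversed, which for the single sites was fixed in advance because every setting used the same reads per site. Single-site calls kept their side of the thresholds under both coverage minimums wherever they could be tested, where only the adjustment of p could change. A minimum of 5 points could not undo a call. Adding the 5 left-out genes or removing the Ube2 genes could not change one at the sites kept. P-values were adjusted over all listed sites tested, whatever the member set, so that agreement was fixed in advance. At 20 points, 43 of the 67 were no longer called. With 20 points required, sites higher in muscle numbered 0 against heart, 4 against liver, 6 against small intestine, 4 against lung and 3 against spleen, and 0 were lower than heart or small intestine. Heart then had 1 higher than liver and 4 higher than small intestine, and liver 0 higher and 0 lower than small intestine. With 5 points, muscle had 10 higher and 3 lower than heart and 1 lower than lung, and heart 1 lower than small intestine. Not every changed count is listed. Sites higher in muscle than in liver also rose at 5 points, for example by Ube3b with a difference of 9.78 points. With 50 reads, muscle had 5 higher than lung, 0 lower than liver and 0 lower than small intestine, liver 0 lower than small intestine, and 7 sites of small intestine, 1 of lung and 0 of spleen reached 10%. With 10 reads, 5 sites reached 10% in spleen. With the 5 left-out genes, muscle had 11 higher than spleen and heart 2 lower than liver, and sites at 10% numbered 5 in lung and 4 in spleen. On sites the authors called outside the pair, an alternative chosen after seeing the data, muscle had 3 higher and 0 lower than heart, and liver 1 lower than small intestine. Fewer sites or stricter limits enter by construction, and other causes were not tested. Shares over all listed sites under these settings are not given here, so these counts are no result about the member sites. No paired analysis was possible because each tissue has 1 column set, and for the same reason leaving out single libraries could not be run.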
